A study of Saccharomyces cerevisiae with 2 samples.

Results

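Crosslink sites of the RNA helicase Dbp2p that lie just past the stop codons of yeast messenger RNAs are described here. They are the deposited nucleotide positions under nuclear protein-coding gene names that fall 1 to 200 nt past the last base of the annotated reading frame, on the gene's strand. There were 2397 such positions among 26754 in the 2 libraries, 931 of 8666 in replicate 1 and 1466 of 18088 in replicate 2. The 3 names YLR157W-E, YOL013W-A and YPR108W-A were left out.

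Dbp2p is a DEAD-box protein, an enzyme that unwinds short RNA helices with ATP and acts on nuclear RNA and on mRNA being packed for export. The RNA past a stop codon is first the 3′ untranslated region, which carries binding sites of proteins that set the stability, place and translation of an mRNA, and then the region where the transcript is cut and given its poly(A) tail. In budding yeast, U-rich and A-rich elements guide that cut. iCLIP uses UV light to crosslink proteins to bound RNA, and the place where reverse transcription ended marks the crosslinked nucleotide.

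The study had 1 group of 2 iCLIP replicates. No control library and none of the RNA-seq of the study were analysed here, which leaves no background for a position and no contrast between conditions to test. Both libraries came from whole cells of strain BTY140, a MATa strain with the markers his3Δ1, leu2Δ0, met15Δ0 and ura3Δ0, in which DBP2 carries an HTBH tag with kanMX6 (DBP2-HTBH:kanMX6), so no untagged strain stands beside it. The cells grew at 30 °C in YPD medium to an OD600 of about 1.0, were irradiated with UV light, and the tagged protein was pulled down through its histidine-biotin tag. The design text speaks of a biological replicate, and the labels do not say whether the cultures were separate, so the spread between these 2 samples may be technical. The value at each position is the share of its own gene's signal, and the number of reads behind it is not given. The measure used below is therefore the number of listed positions, and neither the expression of a gene nor the depth of a library was known beside it.

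The 3 longest stretches of adjacent crosslinked nucleotides past a stop codon were runs of T. The deposited tables give the base at each listed position, and stretches were joined from adjacent positions of either replicate. In all, 12 stretches of at least 6 nt were found, in 12 genes, and the 5 longest are shown because they are where most nucleotides were listed together. They are written 5′ to 3′ on the gene's strand in DNA letters (T for U), with capitals for nucleotides listed in both replicates and lower case for those listed in 1.
ADA2: ttttttTttttTTTttt
BRN1: tTTTTTTtttttt
EDC1: ttTTTTTTTt
RKM3: tGaAaAaaA
QRI7: Aaaaaaaaa

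The ADA2 stretch, 17 nt of T, lies 106 to 122 nt past the stop (chr4:1357475-1357491, plus strand, build sacCer3). ADA2 encodes a subunit of the SAGA histone acetyltransferase complex. The BRN1 stretch is 13 nt of T at 10 to 22 nt (chr2:43105-43117, plus strand), past the frame of a condensin subunit. The EDC1 stretch is 10 nt of T at 26 to 35 nt (chr7:80624-80633, minus strand), past the frame of an activator of mRNA decapping. The 2 other stretches were rich in A. That of RKM3, which encodes a methyltransferase for ribosomal proteins, lies at 82 to 90 nt (chr2:300032-300040, plus strand). That of QRI7, which encodes a mitochondrial protein for tRNA modification, is 9 nt of A that begins at the first base past the stop (chr4:273644-273652, minus strand), and in it 1 nucleotide was listed in replicate 1 and 9 in replicate 2. The other 7 stretches were 6 or 7 nt long. In ALT2 the stretch aattAAa had nucleotides from both replicates, and in PRE1 the stretch tatacta came from replicate 2. Bases that were not listed are not given, so the sequence around the stretches is not shown. QRI7 and PRE1 are named for the length of their stretches, after their values were seen.

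Past the stop codon, positions were densest in the first 50 nt and thinned out steadily to 200 nt in both replicates. The median distance was 64 nt in replicate 1 (quartiles 33 and 107) and 58 nt in replicate 2 (quartiles 28 and 102). Within 100 nt lay 70.9% of the positions in replicate 1 (95% Wilson interval 67.9 to 73.7) and 73.9% in replicate 2 (71.6 to 76.1), a mean of 72.4% ± 2.16 (SD, n = 2). These intervals cover the counting of positions alone, and neighbouring positions are not independent. Per 1000 nt of the listed genes that are free of another annotated gene on the strand, there were 2.57 positions at 1 to 25 nt in replicate 1, 3.01 at 26 to 50 nt and 0.679 at 176 to 200 nt. In replicate 2 the same steps held 3.52, 3.18 and 0.562. The last 200 nt of the frame, in genes at least that long, showed no such slope: the 25 nt steps ranged from 1.07 to 1.46 per 1000 nt in replicate 1 and from 2.48 to 3.01 in replicate 2. The replicates therefore differed inside the frame, where the density in replicate 2 was above that of replicate 1 in every step, and nearly met past the stop from 126 nt on, with 1.06 and 1.04 at 126 to 150 nt.

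**Figure D1:**
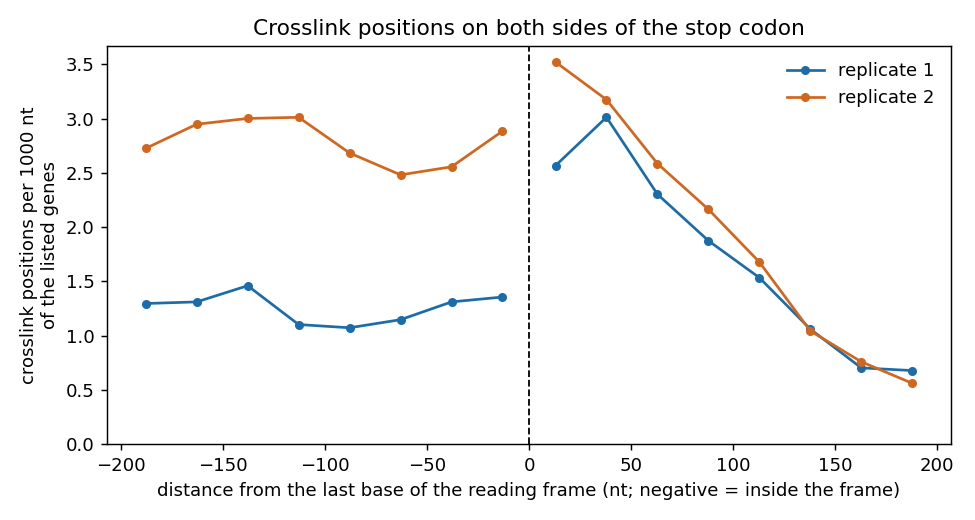
Crosslink positions per 1000 nt of the listed genes (y axis) in steps of 25 nt on both sides of the last base of the reading frame (x axis, nt), 1 line per replicate. Past the stop both lines fall, from 2.57 and 3.52 at 1 to 25 nt to 0.679 and 0.562 at 176 to 200 nt, while inside the frame each stays within its own narrow range.

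Of all positions under protein-coding names, those past the stop were 14.9% of 6254 in replicate 1 (95% Wilson interval 14.0 to 15.8) and 8.95% of 16387 in replicate 2 (8.52 to 9.39), a mean of 11.9% ± 4.20 (SD, n = 2). The 200 nt before the start codon held 6.67% and 4.92%. The last 200 nt of the frame held 10.8% and 12.8%, fewer than past the stop in replicate 1 and more in replicate 2, so the order of these 2 windows depended on the replicate. Past 200 nt a further 94 and 134 positions were listed, the farthest at 363 nt in replicate 1 and 331 nt in replicate 2.

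Uracil took a larger share of the positions past the stop than of those in the frame in both replicates. T in the deposited tables, U in the RNA, was 44.0% of positions past the stop in replicate 1 (95% Wilson interval 40.9 to 47.2) and 37.7% in replicate 2 (35.3 to 40.2). In the last 200 nt of the frame it was 24.9% (21.8 to 28.3) and 29.5% (27.6 to 31.5), and in the 200 nt before the start 33.8% and 27.2%. In both replicates the T share past the stop lay above that of every other region, and the mean difference from the last 200 nt of the frame was 13.7 percentage points ± 7.72 (SD, n = 2). A was nearly the same in both replicates past the stop, 41.9% and 41.2%, whereas in the last 200 nt of the frame it was 51.4% and 38.5%. G was 7.95% and 9.14% past the stop against 15.1% and 17.3% in the last 200 nt of the frame, the lower value past the stop in both. C was 6.12% and 11.9% past the stop, below the 8.59% and 14.7% of the frame's end in each replicate. With 1 position per gene, the strongest, T was 39.7% and 35.3% past the stop and 24% and 27.2% in the last 200 nt of the frame. The base composition of these regions was not known here, and its part in the difference was not tested.

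**Figure D2:**
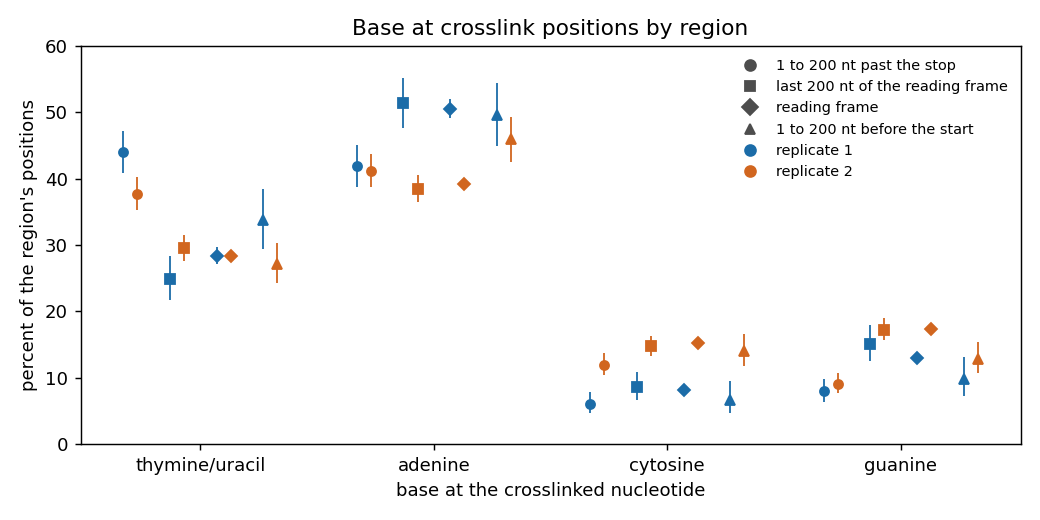
Percent of positions (y axis) with each base at the crosslinked nucleotide (x axis), by region (symbols) and replicate (colours), with 95% Wilson intervals over positions as bars. Past the stop, thymine/uracil reaches 44.0% and 37.7%, above its share in the other 3 regions in both replicates.

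Up to 150 nt the T share was similar in each replicate. It was 45.9% and 39.2% at 1 to 50 nt, 40.3% and 37.9% at 51 to 100 nt and 46.3% and 36.7% at 101 to 150 nt. At 151 to 200 nt it was 43.6% in replicate 1 and 31.7% in replicate 2, where A took 56.9% of 123 positions. In the last step, 176 to 200 nt, T was 32.6% of 46 positions and 19.2% of 52, the lowest of the 8 steps in both replicates. At 26 to 50 nt T was 51.0% in replicate 1 and 44.0% in replicate 2, the highest step of replicate 2. In replicate 1 the step that begins at 151 nt was higher, 54.2% of 48 positions.

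Many positions past the stop had another near them. Another downstream position of the same gene was within 5 nt for 30.7% in replicate 1 (95% Wilson interval 27.8 to 33.8) and 58.6% in replicate 2 (56.1 to 61.1). The shares were lower, 18.3% and 34.3%, for positions directly adjacent to another. With every downstream position weighted by its fraction, those within 5 nt of another held 17.8% and 35.9%. In the last 200 nt of the frame the shares were 10.7% and 59.2%, so positions past the stop were the more clustered in replicate 1, and in replicate 2 the 2 regions differed by less than the width of the intervals. Joined at 5 nt, they formed 743 groups in replicate 1, of which 645 were single positions and 20 held at least 4. In replicate 2 there were 859 groups, 607 of them single, and 108 with at least 4 positions in 99 genes. Of the 20 large groups of replicate 1, 10 were at least 75% T, 3 at least 75% A and 7 mixed. Of the 108 in replicate 2, 17 were at least 75% T, 19 at least 75% A and 72 mixed. The T-rich groups of replicate 1 were past ADA2, AIM33, BRN1, EDC1, ETP1, IMP4, NAB2, PSP2, PUF3 and THP3. ADA2, BRN1, EDC1 and PUF3 also had a T-rich group in replicate 2. AIM33, ETP1 and IMP4 are named here after their values were seen. Clustered positions were 58.4% T in replicate 1 against 37.7% for those standing alone. In replicate 2 the shares were 38.5% and 36.6%, a difference within the intervals.

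Runs of 4 or more adjacent listed nucleotides with the same base held 4.73% of the positions past the stop in replicate 1 and 3.96% in replicate 2. They were joined from the listed positions of both replicates together, so a position could count through neighbours listed only in the other replicate. In the last 200 nt of the frame such runs held 0.148% and 0.428%, and in the 200 nt before the start 1.44% and 1.61%. The mean difference between the positions past the stop and the end of the frame was 4.05 percentage points ± 0.742 (SD, n = 2). Because the replicates share these runs, their values are not independent, and this SD does not measure the spread of independent replicates. The difference was 1.27 points without the 12 genes that had at least 2 nucleotides in both replicates. With positions within 5 nt counted once it was 0.777. Each group of neighbouring positions then counted once per replicate, while runs were still read from all listed positions. T made up 35 of the 44 positions in runs in replicate 1 and 37 of 58 in replicate 2, and A the other 9 and 21. Outside such runs T was still 42.3% and 36.6% of the positions past the stop, against 24.9% and 29.2% at the end of the frame.

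At the same nucleotide, 66 downstream positions were listed in both replicates, 7.09% of those in replicate 1 and 4.50% of those in replicate 2. The shares were 2.07% and 0.666% in the last 200 nt of the frame (14 nucleotides) and 7.43% and 3.85% before the start (31 nucleotides). Of the 66, 41 were T, 23 A, 1 C and 1 G, so T took 62.1%. EDC1, BRN1 and ADA2 gave 17 of the 41 T. Their median distance was 47.5 nt and 45 lay within 100 nt. They came from 39 genes, and 12 of these had at least 2. EDC1 had 7 such nucleotides, BRN1 6, ADA2 and RKM3 4 each, and ALT2 and RSC8 3 each. Without those 12 genes 27 nucleotides were left, 14 T and 13 A. Within 5 nt of a position in the other replicate lay 19.5% of the positions of replicate 1 and 13.6% of those of replicate 2.

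Downstream positions were found past 632 of 2702 listed genes in replicate 1, 23.4% (95% Wilson interval 21.8 to 25), and past 739 of 3790 in replicate 2, 19.5% (18.3 to 20.8). Of these genes 192 were the same, 30.4% of the genes in replicate 1 and 26.0% of those in replicate 2, and 1179 had a position in either. Most had a single position, 468 genes in replicate 1 and 471 in replicate 2, while 17 and 67 had at least 5. At least 3 in each replicate were found past 23 genes and at least 4 in each past 10. Averaged over listed genes, the window held 14.7% of a gene's signal in replicate 1 and 9.56% in replicate 2. These means include 200 and 112 genes whose only listed position was downstream, so that their entire signal lay there. A lone position is also the strongest of its gene by definition. It held the gene's single strongest position in 273 of 1842 genes and in 245 of 2456 genes that have one.

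The genes named here are those with the highest smaller replicate count and those with several nucleotides in both replicates. ADA2 had 9 and 15 downstream positions in replicates 1 and 2, with 100% and 98.4% of its signal, at 112 to 126 nt and 104 to 119 nt. EDC1 had 8 and 10, with 100% and 96.8% of its signal, at 28 to 35 nt and 24 to 34 nt. The places of these 2 genes overlapped between replicates and little signal lay elsewhere, but both traits were among those the genes were chosen by.

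BRN1 had 14 and 7 positions with 98.9% and 94.7% of its signal, and RKM3 6 and 10 with 100% and 91.3%. POL2, the catalytic subunit of DNA polymerase epsilon, had 7 and 4 with 94.4% and 72.7%, of which 6 and 3 were A. PUF3, an RNA-binding protein that controls mRNAs for mitochondrial proteins, had 4 and 4 positions, each of them T, with 70% and 66.7% of its signal, at 40 to 48 nt and 38 to 41 nt. The places of POL2 and PUF3 also overlapped between replicates.

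ALT2, an alanine transaminase homologue, had 8 and 6 positions at 187 to 199 nt and 192 to 198 nt, at the far edge of the window, with 42.5% and 81.2% of its signal. ARE2, a sterol acyltransferase, had 3 and 6 positions and its entire signal past the stop in both replicates, and its T at 58 nt was listed in each, with 40% and 56.2%. In replicate 1 the T at 59 nt also had 40%. RSC8, a subunit of the RSC chromatin remodelling complex, had the same 3 nucleotides in both, at 10 to 12 nt, with 100% and 75% of its signal. The strongest was at 12 nt in replicate 1 and at 11 nt in replicate 2.

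THP3, a factor that joins transcription to mRNA maturation, had 4 and 3 positions with 100% and 75% of its signal and shared 1 nucleotide between replicates. HEM3, a haem synthesis enzyme, had 3 and 4 positions with 37.5% and 90.9%. In replicate 1 its positions at 55, 60 and 65 nt had 12.5% each, and in replicate 2 the strongest, at 54 nt, had 54.5%. TDA10 had 3 and 5 with 50% and 85.7% and shared 2 nucleotides, at 28 and 29 nt. A further 3 genes had several nucleotides in both replicates. NAB2, a poly(A) RNA-binding protein of the nucleus, had 4 and 2 positions with 100% and 56.5% of its signal. Its nucleotides 137 and 136 were listed in both replicates, the first with 40% and 38.0%. PSP2 had 4 and 2 positions, each of them T, with 75% of its signal in both, and NGK1 had 3 and 2, each T, with 85.7% and 66.7%.

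In the 4 genes with a T-rich group in both replicates the signal lay farther from the stop in replicate 1 than in replicate 2. The signal-weighted mean distance was 121 nt and 111 nt in ADA2, 18.3 nt and 12.2 nt in BRN1, 32.1 nt and 28.7 nt in EDC1 and 44.1 nt and 39.7 nt in PUF3. In genes with mostly A at their sites the difference, replicate 2 minus replicate 1, was 0.595 nt in RKM3, 0.688 nt in ALT2 and -1.63 nt in POL2. Over all downstream positions, among 511 pairs of positions within 5 nt of each other, replicate 2 was nearer the stop in 245, farther in 200 and at the same nucleotide in 66, a median shift of 0 nt.

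**Figure D3:**
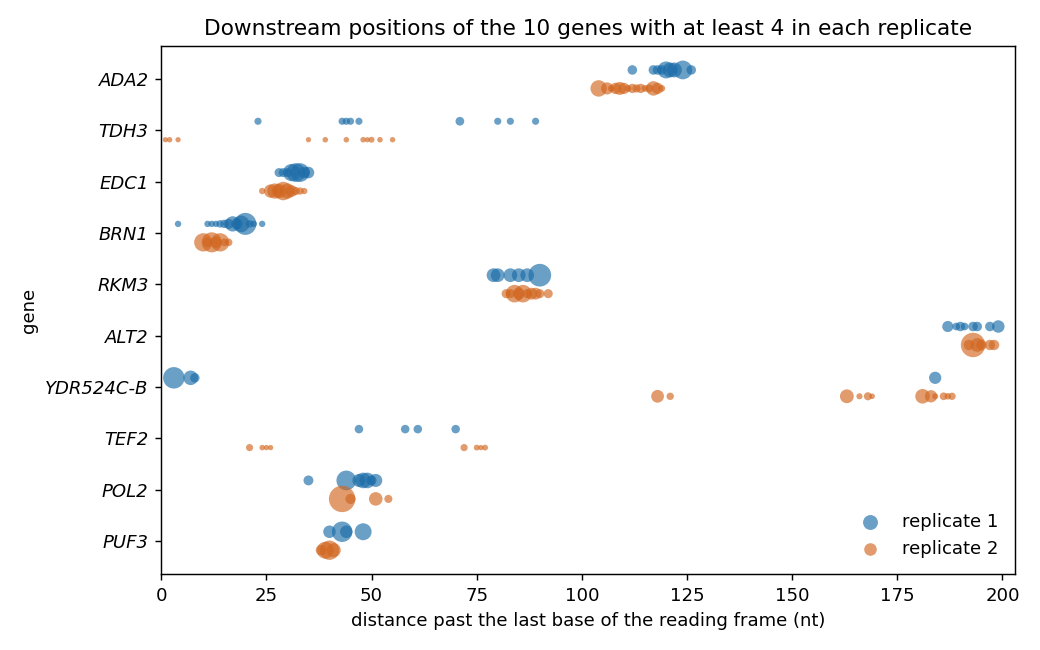
Downstream positions of the 10 genes with at least 4 in each replicate, by distance past the last base of the frame (x axis, nt), with point area growing with the percent of the gene's signal. ADA2, EDC1, BRN1, RKM3, ALT2, POL2 and PUF3 show compact groups at overlapping distances in both replicates, while the points of TDH3 and TEF2 are small and spread. Those of YDR524C-B lie at 3 to 184 nt in replicate 1 and at 118 to 188 nt in replicate 2.

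Some genes of glycolysis and translation are described next. TDH3, the main glyceraldehyde-3-phosphate dehydrogenase, had 9 and 11 downstream positions among 36 and 130, with 19.2% and 3.05% of its signal, and 1 shared nucleotide. In replicate 2, 2 of its downstream positions had the same distance and base as positions of its copy TDH2, so the values of the copies are uncertain there. TEF2 and its copy TEF1, which encode the elongation factor that brings tRNA to the ribosome, had 4 and 8 and 2 and 14 downstream positions. They held 14.3% and 5.86% of the signal of TEF2 and 6.90% and 6.72% of that of TEF1. No downstream position of TEF1 had the distance and base of a position of TEF2. PDC1, pyruvate decarboxylase, had 3 and 7 with 7.69% and 5.09%, ENO2, enolase, 3 and 6 with 5.17% and 5.85%, and EFT2, elongation factor 2, 3 and 5 with 11.5% and 5.45%. The stretches covered by the replicates did not overlap in PDC1, at 33 to 40 nt and 19 to 27 nt, or in EFT2, at 100 to 134 nt and 49 to 81 nt. Nor did they in RPS23A, a small-subunit ribosomal protein, with 3 positions at 117 to 138 nt and 5 at 12 to 17 nt, which held 16.7% and 55.1% of its signal.

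The other genes of high smaller count follow. SCW4, a cell wall protein, had 3 and 9 positions with 62.5% and 13.4% of its signal. CWP2, a cell wall mannoprotein, had 2 and 10 with 66.7% and 40.8%, and its T at 129 nt was listed in both. PSA1, which makes GDP-mannose for glycosylation, had 5 and 3 with 33.3% and 6.62%. HOR7, a small protein, had 5 and 3 with 53.8% and 37.5%, and SSC1, the Hsp70 of mitochondria, 4 and 3 with 36.4% and 16.7%. YDR524C-B had 4 and 12 with 61.9% and 60.7%. Of its positions, 1 and 12 lay inside the annotated frame YDR524W-C on the other strand. Similar shares did not mean similar places. The signal-weighted mean distance was 32.2 nt and 164 nt in YDR524C-B, 13.2 nt and 105 nt in SCW4 and 122 nt and 197 nt in SSC1. It was 141.5 nt and 107 nt in CWP2, 123 nt and 149 nt in PSA1 and 57.7 nt and 47.8 nt in HOR7.

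Among the gene groups, the histones had the highest part of their positions past the stop, 7 of 16 in replicate 1 and 15 of 37 in replicate 2, or 43.8% and 40.5%, where all protein-coding genes had 14.9% and 8.95%. Of the 10 histone genes 8 and 9 were listed, and 4 and 5 had a downstream position. HTB1, a histone H2B gene, had 2 and 3, with 100% and 83.6% of its signal. Its nucleotide at 21 nt was listed in both, with 33.3% and 1.82%. The strongest position differed, at 86 nt with 66.7% in replicate 1 and at 19 nt with 78.2% in replicate 2. HTA1, a histone H2A gene, was listed in replicate 2 alone, with 6 adjacent downstream nucleotides at 19 to 24 nt and 33.3% of its signal. HHF1, a histone H4 gene, had 1 in each, at 116 nt and 90 nt. The list counts are small, and the lists were chosen with earlier results of these data known.

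The share of listed members with a downstream position was above the 23.4% and 19.5% of all listed genes for 6 of the 8 groups in both replicates. Glycolysis and fermentation had 68.4% and 47.4%, genes of the cell wall or plasma membrane 57.9% and 47.4%, chaperones 55.6% and 40%, histones 50% and 55.6%, cytoplasmic ribosomal proteins 49.6% and 40.9% and translation factors 25% and 48.1%. The 25% of translation factors in replicate 1 was near the 23.4% of the whole. Positions per gene differed between groups. Glycolysis had 357 and 1030 positions in 19 listed genes, and histones 16 in 8 and 37 in 9. All protein-coding genes had 6254 in 2702 and 16387 in 3790. The part of this in the shares was not tested. A second measure is the part of a group's own positions that lay past the stop, 14.9% and 8.95% over the whole. Beside the histone values above, it was 15.2% and 15.8% for cell wall genes, 12% and 6.50% for glycolysis, 14.4% and 4.22% for chaperones, 15.3% and 10.9% for ribosomal proteins and 8.28% and 8.40% for translation factors. In replicate 1 the values of cell wall genes, ribosomal proteins and chaperones lay within the interval of the whole, 14.0% to 15.8%, and in replicate 2 that of translation factors was 8.40% where the whole had 8.95%. Chaperones in replicate 2 were above the whole by the first measure and below it by the second.

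Among the ribosomal protein genes, RPL32 had 2 and 4 downstream positions with 29.4% and 14.7% of its signal and RPL35B 3 and 2 with 30% and 66.7%. No downstream nucleotide of the 138 genes was the same in both replicates, although 32 of them had a downstream position in each. Over all protein-coding genes, 192 had a downstream position in each replicate, and 39 had a nucleotide in both. Some other groups had no such nucleotide either, chaperones and translation factors among them, and the rest had 1 or 2. The difference was not tested. CCW12, a cell wall mannoprotein, had 2 and 9 with 10% and 7.43%. Of the cytosolic Hsp70 genes, SSB1 had 1 and 6 with 11.8% and 5.79% and SSA2 1 and 4 with 7.69% and 4.33%.

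The study's title links Dbp2p to the helicase Sen1p, which ends transcription early together with Nrd1 and Nab3. Of 9 genes known to be attenuated in this way, 6 and 9 were listed, and 1 and 2 had a downstream position. These are 16.7% and 22.2%, near the 23.4% and 19.5% of all listed genes. RPB10, a subunit shared by the nuclear RNA polymerases, had 1 of 1 positions past the stop in replicate 1, at 139 nt, and 6 of 6 in replicate 2, at 72, 104 and 171 to 174 nt. HRP1, a cleavage factor that binds UA repeats in the 3′ untranslated region, had 0 of 4 and 2 of 8. Of the 15 and 13 listed mRNA packaging and export factors, 3 had a downstream position in each replicate, 20% and 23.1%, near the 23.4% and 19.5% of all listed genes, and NAB2 was the member with some in both. PUB1, which binds U-rich RNA, had 2 of 2 in replicate 1 and was not listed in replicate 2. DBP2 itself had 0 of 10 and 2 of 9, the latter at 39 and 128 nt with 17.6% of its signal.

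The part of a gene's positions that lay past the stop fell with the length of its frame. A window of fixed length is a smaller part of a longer gene. For frames under 500 nt it was 32.0% in replicate 1 and 25.1% in replicate 2, from 500 nt to under 1000 nt 19.1% and 12.6%, from 1000 nt to under 2000 nt 14.7% and 8.75%, and for 2000 nt or more 8.47% and 4.67%. The histone genes HTB1, HTA1 and HHF1 have frames of 396, 399 and 312 nt and belong to the shortest class, and its part in the histone values was not tested. The share of listed genes with any downstream position fell in the same order, from 45.3% and 36.9% to 13.8% and 14.3%.

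**Figure D4:**
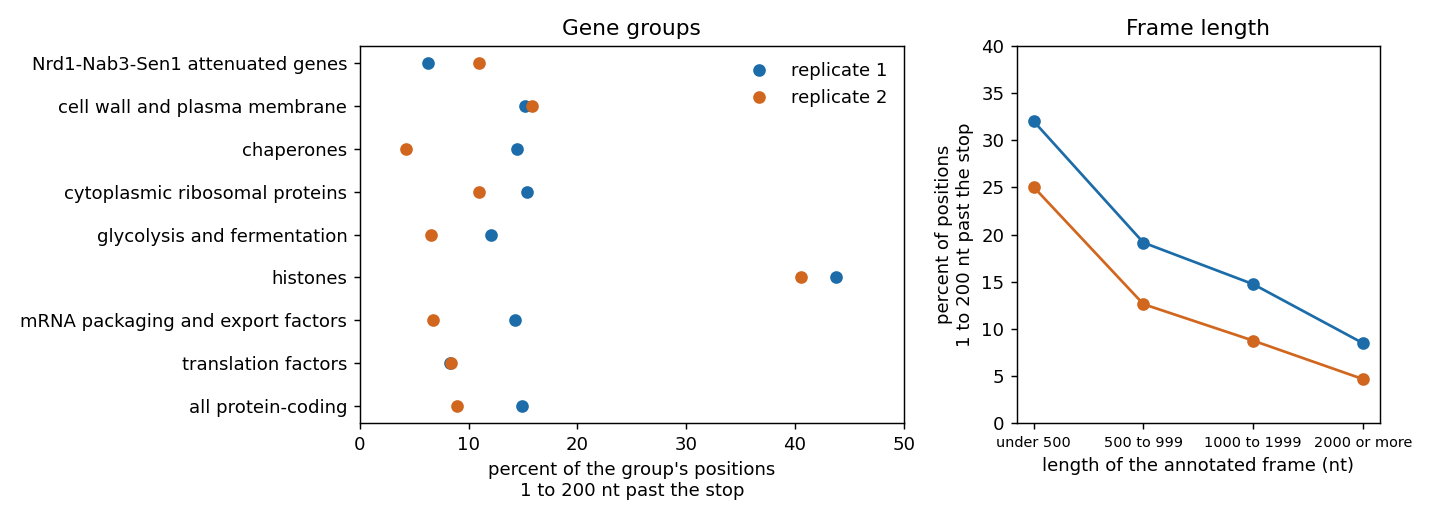
Percent of positions that lie 1 to 200 nt past the stop (x axis of the left panel, y axis of the right) by gene group and by length of the annotated frame (nt), 1 point per replicate. Histones stand at 43.8% and 40.5% where all protein-coding genes stand at 14.9% and 8.95%, and both lines fall with frame length.

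Few downstream positions lay in another annotated gene, 17 in replicate 1 and 35 in replicate 2 on either strand, and 8 and 6 of these on the same strand. A further limit is set by the next gene: 84 and 91 positions, 9.02% and 6.21%, were also within 200 nt before the start of another frame on the same strand, where the 3′ end of 1 mRNA and the 5′ end of the next cannot be told apart. When the next frame pointed the same way, 21.9% and 19.5% of listed genes had a downstream position, with a median distance of 58 and 54 nt. When it pointed towards the gene, 24.8% and 19.6% did, at 67 and 61 nt. The median gap to the next frame was 404.5 and 406 nt for the first kind and 242 and 233 nt for the second.

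Between genes that point towards each other, downstream positions on opposite strands lay within 50 nt in 14 gene pairs in each replicate. Of the listed genes whose next frame pointed towards them, 361 and 397 had a downstream position. How many facing pairs had downstream positions on both strands was not counted, so no share is given. In both replicates 5 pairs had positions this close. These were NSE4 and QRI7, SPO73 and SAP1, MET3 and SPC1, ARE2 and ATP23, and YPR172W and VPS4, which were chosen after their values were seen. In NSE4 and QRI7 the same nucleotides were listed in both replicates, 33 nt past the stop of NSE4 (position 273630, plus strand) and 1 nt past that of QRI7 (273652, minus strand), 22 nt apart. In SPO73 and SAP1 the nucleotides at 52 nt and 125 nt recurred, also 22 nt apart. In ARE2 the nucleotide at 58 nt recurred, and in ATP23 those at 56 nt and 53 nt, which lay 29 nt and 32 nt from it. The plus-strand position lay to the left in 46 of 46 position pairs in replicate 1 and in 49 of 53 in replicate 2, with median distances of 23 and 25 nt. Position pairs are all combinations within a gene pair and are not independent. Wherever both distances past the stop add up to less than the gap between the frames, this order is fixed by the pairing. It is therefore not read as a trait of the sites. The exceptions were in SUP35 and ARG82, DIG2 and PHO8, and RRG7 and MCH5.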

How the data were processed

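The authors deposited 1 table per iCLIP replicate that lists crosslinked nucleotides by place and base, each with a gene and a normalized value, per the file headers. Tested on the tables, this value is a fraction: the deposited fractions sum to 1, within 1e-06, in all 2787 and 3873 gene names, so no depth of a gene or library is given. The submitters' processing notes name CASAVA and TopHat, with no version, and build sacCer3. Collapsing of cDNAs, multiple mapping, any offset from the cDNA end and the flank given to each gene are not given in the sources used here.

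Systematic names were matched to a RefSeq table of assembly R64, whose coordinates were checked on the files: 58 of 58 bases in start codons and 60 of 60 in stop codons were those allowed, and no matched position was on the opposite strand to its gene name. The 2702 and 3790 matched names held 6254 and 16387 positions, and 1 name with 1 position in replicate 2 was unmatched. Frames are annotated spans with introns included. Distances were tested on simulated positions. Python 3.11.15, numpy 2.4.6, pandas 2.3.3, scipy 1.17.1 and matplotlib 3.10.9 were used. Each replicate was described on its own, with mean and SD over 2 and 95% Wilson intervals, and without tests, since there is 1 group. Stretches and runs were the exception, as they were joined over both replicates. Named genes are the 25 highest by the smaller replicate count, 10 with most nucleotides in both, the top 3 of each list, the 5 with the highest share of signal downstream (at least 3 positions in each replicate) and DBP2. Members, lists and rules were chosen with earlier results of these data known. The alternatives were another window, gap, weighting or choice of genes or positions.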

Additional observations from a re-analysis of the deposited data

How the results depend on the processing

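For 8 results, 88 values were recomputed under alternatives other than leaving out a replicate. Of these, 76 stayed within 1 SD of the replicates (for counts, within 1.5 times) and 12 moved. Shares and counts cannot be negative, so only the differences in T share and in runs could have changed direction, and neither did. That SD is wide for clustering, whose mean of 44.7% was 26.3% with a gap of 1 nt and 26.8% when weighted by the fraction. The share within 100 nt was 79.8% in a window of 150 nt, which is fixed by the smaller window. The 66 nucleotides in both replicates became 14 with positions within 5 nt counted once, 26 without the lowest fractions of a gene and 27 without the 12 genes with at least 2 such nucleotides, an alternative added after seeing the data. They became 108 within 1 nt and 182 within 5 nt. The excess of runs past the stop, 4.05 points, was 0.777 with positions within 5 nt counted once. Runs were still read there from all listed positions, and each group of neighbours counted once. The excess was 1.5 when weighted by the fraction, 1.27 without those 12 genes and 4.82 in genes with at least 2 positions. It was 5.06 in genes listed in both replicates and 4.81 without ribosomal protein and glycolysis genes. Leaving out 1 of 2 replicates gives the other replicate's value and is no check of stability: the share past the stop ranged from 8.95% to 14.9%, that within 100 nt from 70.9% to 73.9%, T from 37.7% to 44.0%, clustering from 30.7% to 58.6%, the genes from 632 to 739, the T difference from 8.23 to 19.1 points and that of runs from 3.53 to 4.58. For runs, the listed positions of both replicates were still used with 1 left out. Nucleotides in both replicates cannot be counted with 1 left out. No paired analysis was possible because there is 1 group. The reads behind each fraction are not given, so no limit of detection can be set for a gene or position.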

Other observations

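GPB1, which acts in nutrient signalling through cyclic AMP, had most of its signal at a single downstream nucleotide in both replicates, and was chosen after its values were seen. A single C at 81 nt past its stop (position 1031408, minus strand, build sacCer3) held 88.5% of its signal in replicate 1 and 77.9% in replicate 2, and the neighbouring T at 82 nt held 3.85% and 3.16%. It is the 1 C among the 66 nucleotides in both replicates.

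CLN3, a G1 cyclin, had 1 downstream nucleotide in both replicates, at 146 nt, which held 100% of its signal in replicate 1 and 1.75% in replicate 2. The gene was likewise chosen after its values were seen.

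Among genes with at least 3 positions, 75 of 722 in replicate 1 and 134 of 1859 in replicate 2 had over 50% of their signal 1 to 200 nt past the stop.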
